A study of Homo sapiens with 6 samples.

Results

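The 55 genes described here encode proteins that make ribosomes in the nucleolus: RNA polymerase I and its factors, the small nucleolar ribonucleoprotein (snoRNP) proteins, and the assembly factors of the small and the large ribosomal subunit. They were chosen by name, from knowledge of the pathway, not by a threshold on these data but with earlier results of these data known. They were kept by their GENCODE symbols among 62252 genes to which the transcripts of 6 polyA-selected mRNA-seq libraries were mapped. All 55 were found, and all 55 had enough reads to be tested. They fell into 8 genes of RNA polymerase I, 9 snoRNP genes, 17 small subunit genes, 16 large subunit genes and 5 genes that act at several steps.

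The libraries came from K562 cells, an established human erythroleukemia line that carries erythroid and myeloid features. Both groups carried the same cassette, a Flag-tagged PCBP1 gene under a doxycycline (Dox)-inducible promoter that had been exchanged by Cre recombinase into loxP and lox2272 sites at the AAVS1 locus of 1 K562flox clone. The puromycin-selected line was polyclonal. PCBP1 is a poly C-binding protein that binds RNA and also delivers iron inside cells. The −Dox group (3 libraries) was not induced, and the +Dox group (3 libraries) was treated with Dox to overexpress Flag-PCBP1. No library of Dox-treated cells without the PCBP1 cassette was among them, so an effect of Dox and one of Flag-PCBP1 cannot be told apart. The Dox dose and time for these libraries are not given in the sources used here, and nothing there says whether replicates were separate cultures, so the p-values measure the spread between these libraries. Total estimated counts were 84177316, 80104627 and 74766040 in −Dox and 70905656, 82263502 and 82449808 in +Dox.

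Ribosome biogenesis begins in the nucleolus, where RNA polymerase I transcribes the long ribosomal RNA precursor. Box C/D snoRNPs guide 2′-O-methylation of that precursor and box H/ACA snoRNPs guide its pseudouridylation, while the U3 snoRNP and the small subunit processome fold and cut the part that becomes the small subunit. A separate set of factors, among them the PES1-BOP1-WDR12 (PeBoW) complex, releases and matures the large subunit. The pathway is among the costliest of a growing cell, many of its genes are bound by MYC at an E-box near the start site, and in the erythroid lineage it falls as cells mature. Ribosomal RNA itself is largely left out by polyA selection, so the values below are mRNA levels of the machinery and not its output.

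PCBP1 mRNA checked the labels. In CPM (read counts per 1000000, scaled between libraries by the trimmed mean of M values, TMM), it stood at 247.5, 269.5 and 266.9 in the −Dox libraries and at 1030, 936.4 and 1037 in the +Dox libraries. All 3 +Dox libraries lay far above all −Dox libraries. The increase was 3.83-fold (log2 fold change 1.94, SE 0.06, edgeR adjusted p = 5.22e-10). Reads from the tagged and the endogenous gene were counted together.

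Nucleolar mRNAs were lower after PCBP1 induction, almost without exception and by a small amount. Of the 55 genes, 54 had a lower fitted level in +Dox, where 48.9% of the 21045 genes tested did. The test called 45 of the 55 as lower (edgeR quasi-likelihood test, adjusted p under 0.05 over all genes tested). Among all genes tested, 7.68% passed as lower. None of the 55 passed as higher at an adjusted p under 0.05, where 8.16% of all genes did in the edgeR test. DESeq2 also called 0 higher, and at an unadjusted p under 0.05 the edgeR count was 0 as well. UBTF was the single gene with a higher fitted level and did not pass. The median log2 fold change of the 55 was −0.28, a 17.6% lower level, against 0.006 over all genes tested. The changes were narrow in range, from −0.50 (MYBBP1A) to 0.08 (UBTF), and none reached the limit of an absolute log2 fold change above 1 that 1.46% of all genes passed together with the adjusted p. In 50 genes all 3 +Dox libraries lay below all 3 −Dox libraries, a pattern found in 15.8% of genes tested, and in 33.2% when either direction counts.

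Small changes are detected more easily in genes with many reads, so a background without scarce genes was taken as well. Among the 6440 protein-coding genes with a mean count of at least that of the scarcest of the 55 (1977 counts), 15.7% passed as lower and the median log2 fold change was −0.01. The cumulative curve of the nucleolar genes lay left of both backgrounds through most of its course.

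**Figure D1:**
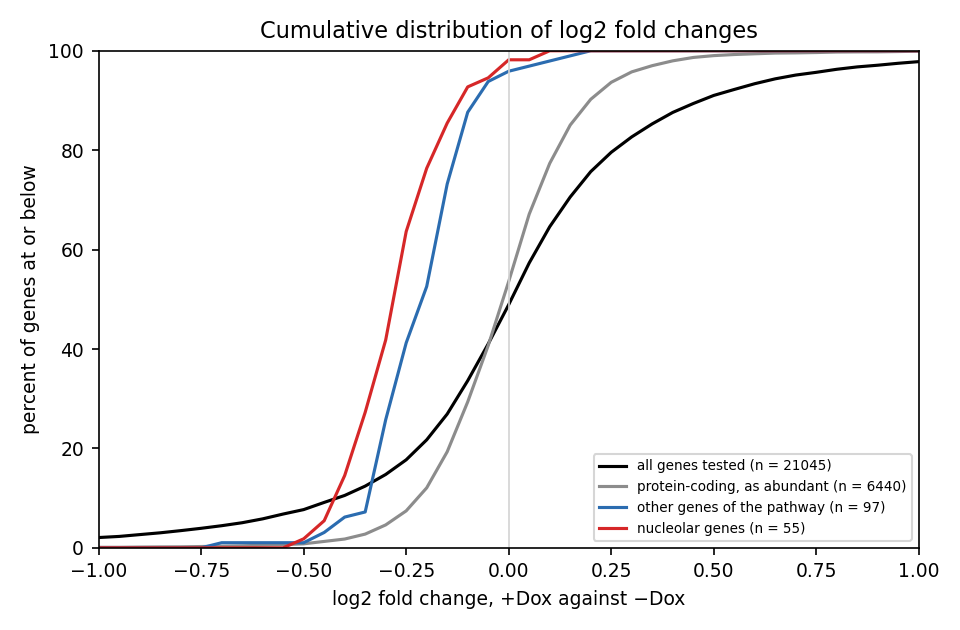
Percent of genes at or below each log2 fold change (+Dox against −Dox, x axis) for all 21045 genes tested, for the 6440 protein-coding genes at least as abundant as the scarcest of the 55, for 97 other genes of the pathway and for the 55 nucleolar genes. The curve of the nucleolar genes reaches nearly its full height left of 0, whereas those of both backgrounds cross 0 near the middle of the y axis.

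**Figure D2:**
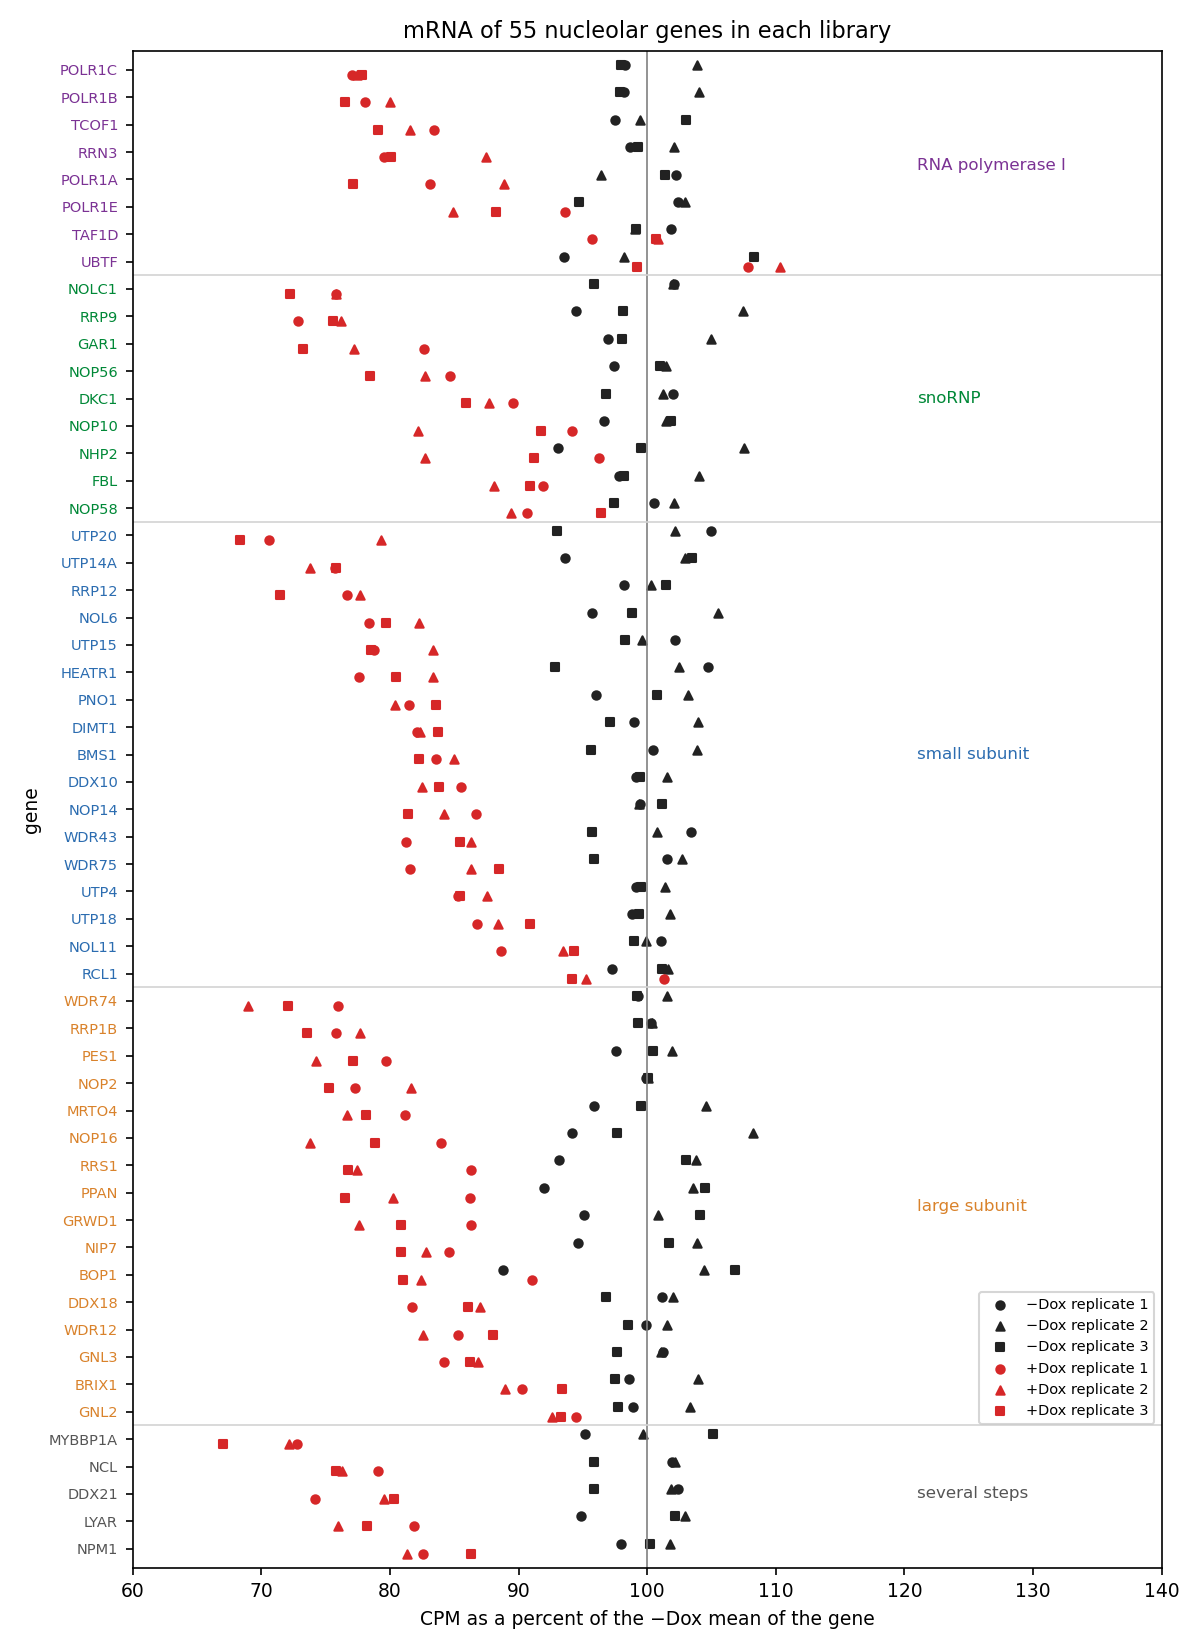
CPM of each of the 55 genes in each library as a percent of that gene's −Dox mean (x axis), with genes ordered within their groups on the y axis; black points are −Dox and red points +Dox libraries, and the shape gives the replicate. Red points lie left of all black points in 50 genes, and the exceptions are UBTF, TAF1D, NHP2, RCL1 and BOP1.

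Promoter sequence was examined as a feature that the choice of genes did not use. RefSeq promoters (250 bases before to 50 bases after the start, GRCh38.p14) were at hand for 46 of the 55 genes, some with several starts, 56 promoters in all. The E-box CACGTG, which reads the same on both strands, was present in 21 of 46 genes (45.7%), in 29.8% of 84 other genes of the pathway, in 12.4% of protein-coding genes tested and in 8.77% of all genes in the promoter table. Counted by promoter, it was in 37.5% of those of the 55 genes and in 7.26% of all 35116. The sequences below are 30-base stretches, written 5′ to 3′ on the gene's strand with the E-box in capitals, for the genes whose values are given library by library and whose promoter holds one. They show how close to the start the motif sat: it overlapped or lay within 40 bases of the start in all of them except UTP14A. NOP10 has a second E-box farther upstream, which is not shown.
RRP9 (chr3:51941892-51941921, minus strand): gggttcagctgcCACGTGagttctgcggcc
GAR1 (chr4:109815781-109815810, plus strand): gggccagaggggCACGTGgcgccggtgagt
NOP10 (chr15:34343130-34343159, minus strand): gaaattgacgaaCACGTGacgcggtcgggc
FBL (chr19:39846356-39846385, minus strand): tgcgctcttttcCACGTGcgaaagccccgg
UTP14A (chrX:129905914-129905943, plus strand): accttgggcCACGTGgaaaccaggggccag
UTP20 (chr12:101280083-101280112, plus strand): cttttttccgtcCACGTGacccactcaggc
RCL1 (chr9:4792936-4792965, plus strand): cctgttccaaacCACGTGgacgcgtctggg
PES1 (chr22:30591880-30591909, minus strand): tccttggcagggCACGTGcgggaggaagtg
GNL2 (chr1:37595917-37595946, minus strand): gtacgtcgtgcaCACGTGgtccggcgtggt
MYBBP1A (chr17:4555340-4555369, minus strand): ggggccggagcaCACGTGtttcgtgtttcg
DDX21 (chr10:68956604-68956633, plus strand): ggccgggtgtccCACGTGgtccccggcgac

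By group, and without a test between groups, the E-box was in 9 of 16 small subunit promoters, 4 of 8 snoRNP promoters, 5 of 15 large subunit promoters, 3 of 8 promoters of the genes of several steps and 0 of 9 RNA polymerase I promoters. The ETS motif CCGGAAG, searched on both strands and unable to overlap an E-box by its letters, was in 6 of 9 RNA polymerase I promoters, 4 of 8 snoRNP promoters, 6 of 15 large subunit promoters, 2 of 16 small subunit promoters and 1 of 8 promoters of the genes of several steps. It was in 44.2% of the promoters of other pathway genes, in 15.97% of those of protein-coding genes tested and in 10.3% of all promoters. These are counts of letters in a window, not of bound factors. The changes of genes with and without an E-box are given side by side, without a test. The 21 with one had a median log2 fold change of −0.32 with 18 passing as lower, the 25 without one had −0.27 with 20 passing, and the 9 without a promoter entry had −0.30 with 7 passing. The 3 genes with an E-box that did not pass the test were NOP10, RCL1 and GNL2, whose E-boxes are shown above.

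For RNA polymerase I and its factors, 5 of 8 mRNAs passed as lower and 7 had a lower fitted level. The median log2 fold change was −0.27. UBTF and TAF1D, which act at the ribosomal DNA promoter, were among the 3 that did not pass. Of the 4 listed subunits, POLR1A, POLR1B and POLR1C passed as lower, and POLR1E (−0.17, edgeR adjusted p = 0.055) had separate groups but missed the threshold.

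POLR1C, a subunit that RNA polymerase I shares with RNA polymerase III, stood at 99.2, 104.9 and 98.9 CPM in −Dox and at 77.8, 78.3 and 78.6 CPM in +Dox. The +Dox libraries were almost alike and far below the −Dox libraries (log2 fold change −0.37, SE 0.05, edgeR adjusted p = 0.000225). POLR1B, the subunit that forms much of the active site together with POLR1A, stood at 109.8, 116.3 and 109.4 CPM in −Dox and at 87.3, 89.5 and 85.6 CPM in +Dox. Again the groups were far apart (−0.36, SE 0.05, edgeR adjusted p = 0.000328). On the TPM scale (transcripts per 1000000, corrected for transcript length), POLR1B went from a mean of 40.2 to 25.7, and correcting the edgeR fit for transcript length gave a log2 fold change of −0.61. POLR1A moved in the same way, to −0.48 under that correction, but with limma on TPM POLR1A missed the threshold (−0.50, limma adjusted p = 0.0581).

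TCOF1 encodes treacle, a nucleolar scaffold that binds RNA polymerase I and UBTF. Its values were 85.0, 86.8 and 89.9 CPM in −Dox and 72.8, 71.1 and 69.0 CPM in +Dox, without overlap (−0.30, SE 0.05, edgeR adjusted p = 0.00122). RRN3, the factor that makes RNA polymerase I competent to initiate, was lower as well (−0.28, SE 0.05, edgeR adjusted p = 0.00277), and so was POLR1A, the largest subunit (−0.27, SE 0.06, edgeR adjusted p = 0.00789).

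TAF1D, a subunit of the promoter selectivity factor SL1, had the largest p of the group. It stood at 254.8, 247.9 and 248.0 CPM in −Dox and at 239.4, 252.4 and 251.9 CPM in +Dox, so that the groups overlapped (−0.01, SE 0.04, edgeR adjusted p = 0.884). UBTF, which bends and opens the ribosomal DNA promoter, was 82.2, 86.3 and 95.2 CPM in −Dox and 94.8, 97.0 and 87.2 CPM in +Dox and also overlapped (0.08, SE 0.06, edgeR adjusted p = 0.434). UBTF was picked out after its values were seen.

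For the snoRNP proteins, 6 of 9 mRNAs passed as lower and all 9 had a lower fitted level. The median log2 fold change was −0.19. The 2 largest changes were not among the core proteins that box C/D or box H/ACA snoRNPs share. NOLC1 (Nopp140), a chaperone that moves snoRNPs between Cajal bodies and the nucleolus, stood at 222.5, 222.4 and 209.0 CPM in −Dox and at 165.3, 165.3 and 157.4 CPM in +Dox. The groups were separated by more than their own spread (−0.42, SE 0.05, edgeR adjusted p = 7.88e-05). RRP9, the protein specific to the U3 snoRNP, had 27.0, 30.8 and 28.1 CPM in −Dox and 20.9, 21.8 and 21.6 CPM in +Dox, again without overlap (−0.42, SE 0.06, edgeR adjusted p = 0.000717).

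Of the 4 proteins of the box H/ACA core, 2 passed as lower. GAR1 was 61.6, 66.7 and 62.3 CPM in −Dox and 52.5, 49.0 and 46.5 CPM in +Dox, with all +Dox libraries lower (−0.36, SE 0.06, edgeR adjusted p = 0.00114). DKC1, the pseudouridine synthase dyskerin, also passed (−0.19, SE 0.04, edgeR adjusted p = 0.011). NOP10 stood at 88.6, 93.0 and 93.4 CPM in −Dox and at 86.3, 75.4 and 84.1 CPM in +Dox, where the groups just failed to overlap and the test did not pass (−0.16, SE 0.06, edgeR adjusted p = 0.0732). NHP2, at 115.9, 133.9 and 123.9 CPM in −Dox and 119.8, 103.0 and 113.5 CPM in +Dox, overlapped and did not pass (−0.15, SE 0.07, edgeR adjusted p = 0.143). Differences between these 4 genes were not tested.

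Of the box C/D core, NOP56 passed as lower (−0.29, SE 0.05, edgeR adjusted p = 0.00115) and its paralog NOP58 did not (−0.12, SE 0.05, edgeR adjusted p = 0.112). FBL, the methyltransferase fibrillarin, stood at 230.4, 244.9 and 231.3 CPM in −Dox and at 216.5, 207.4 and 214.1 CPM in +Dox. Its groups did not overlap and it passed narrowly (−0.15, SE 0.05, edgeR adjusted p = 0.0436), a call lost in 6 of 15 alternative settings. Leaving out minusDox replicate 2 or 3 or any plusDox library gave edgeR adjusted p between 0.0748 and 0.188.

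**Figure D3:**
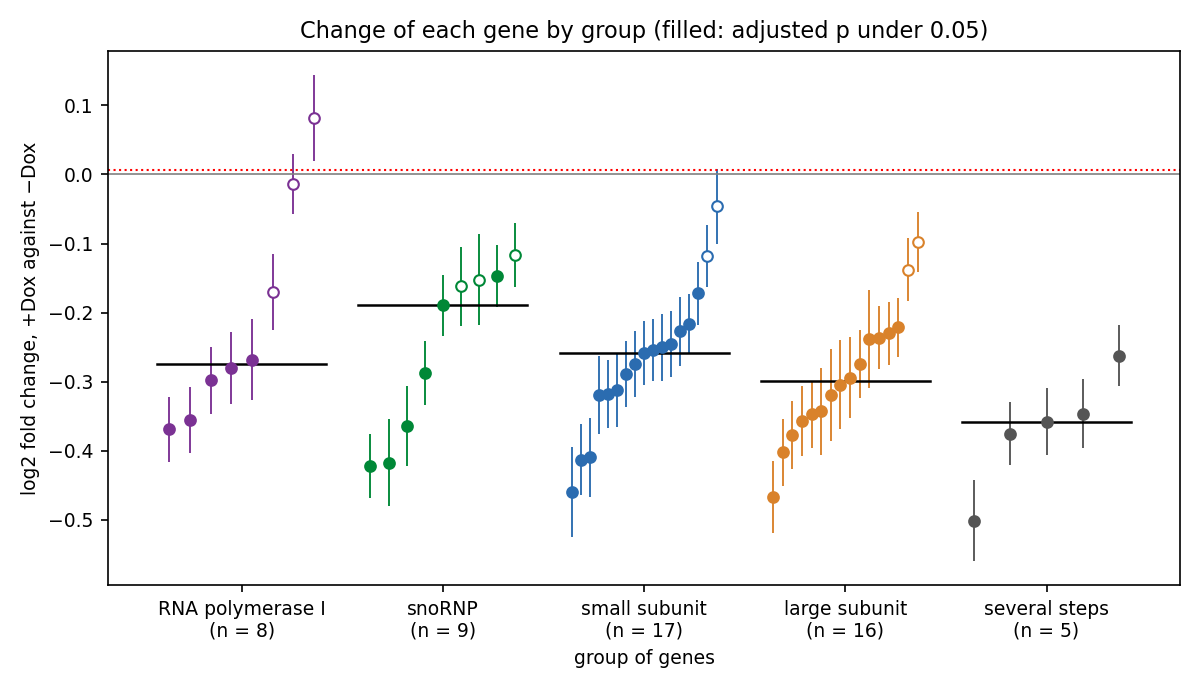
Log2 fold change of each gene (y axis, +Dox against −Dox; whiskers are the SE of the edgeR fit) by group (x axis); filled points passed at an adjusted p under 0.05, black bars are group medians and the dotted line is the median of all genes tested (0.006). Group medians run from −0.19 (snoRNP) to −0.36 (several steps), all below the dotted line.

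For the small subunit processome and its helpers, 15 of 17 mRNAs passed as lower and all 17 had a lower fitted level. The median log2 fold change was −0.26. UTP20, a very large scaffold protein of the processome, had 97.2, 94.6 and 86.1 CPM in −Dox and 65.4, 73.5 and 63.3 CPM in +Dox. It was 27.3% lower (−0.46, SE 0.07, edgeR adjusted p = 0.000481), with the groups well apart. UTP14A, which activates the helicase that frees the U3 snoRNA, had 101.0, 111.1 and 111.7 CPM in −Dox and 81.7, 79.6 and 81.8 CPM in +Dox. The 3 +Dox libraries were close to each other and lower than all −Dox libraries (−0.41, SE 0.05, edgeR adjusted p = 0.000198).

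RRP12, a repeat protein needed for processing and export of the small subunit, went from 29.6, 30.2 and 30.6 CPM to 23.1, 23.4 and 21.5 CPM, also without overlap (−0.41, SE 0.06, edgeR adjusted p = 0.000443). Its call was lost with an offset for transcript length (edgeR adjusted p = 0.0606) and with limma on TPM (adjusted p = 0.137). The t-UTP genes, whose proteins bind the precursor first and are needed for its transcription, passed as lower in 5 of 6: UTP4, UTP15, WDR43, WDR75 and HEATR1, with a median over all 6 of −0.24. The exception NOL11, which had the highest mean TPM of the group over all libraries, stood at 210.3, 207.8 and 205.8 CPM in −Dox and at 184.4, 194.4 and 196.2 CPM in +Dox. Its groups were separate, but the difference was small (−0.12, SE 0.04, edgeR adjusted p = 0.0952).

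The other gene that did not pass was RCL1, an endonuclease-like factor that works with the GTPase BMS1. It stood at 37.2, 38.9 and 38.7 CPM in −Dox and at 38.8, 36.5 and 36.1 CPM in +Dox, which overlapped (−0.05, SE 0.05, edgeR adjusted p = 0.645). Its partner BMS1 passed as lower (−0.26, SE 0.05, edgeR adjusted p = 0.00246). The remaining genes NOL6, PNO1, DIMT1, NOP14, DDX10 and UTP18 all passed as lower, with log2 fold changes between −0.32 (NOL6) and −0.17 (UTP18). NOL6 lost its call with limma on TPM (limma adjusted p = 0.0856). UTP18 lost its call in 7 of the 15 alternatives, among them leaving out minusDox replicate 2 or 3 or plusDox replicate 1 or 2 (edgeR adjusted p between 0.0559 and 0.0898).

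For the factors of the large subunit, 14 of 16 mRNAs passed as lower and all 16 had a lower fitted level. The median log2 fold change was −0.30. WDR74, which acts with the ATPase NVL in nucleolar precursors of the large subunit, stood at 71.8, 73.4 and 71.7 CPM in −Dox and at 54.9, 49.9 and 52.1 CPM in +Dox. It was 27.7% lower (−0.47, SE 0.05, edgeR adjusted p = 7.99e-05), the largest decrease of the group. RRP1B, a nucleolar protein of early large subunit particles, was 63.3, 63.3 and 62.6 CPM in −Dox and 47.8, 49.0 and 46.4 CPM in +Dox. The −Dox libraries hardly differed from each other and lay well above the +Dox libraries (−0.40, SE 0.05, edgeR adjusted p = 0.000162).

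All 3 genes of the PeBoW complex passed as lower. PES1 had 85.9, 89.7 and 88.4 CPM in −Dox and 70.1, 65.3 and 67.9 CPM in +Dox, without overlap (−0.38, SE 0.05, edgeR adjusted p = 0.000274). WDR12 was lower in every +Dox library too (−0.23, SE 0.05, edgeR adjusted p = 0.00405). BOP1, at 69.9, 82.2 and 84.1 CPM in −Dox and 71.7, 64.9 and 63.8 CPM in +Dox, passed narrowly although 1 −Dox library lay within the +Dox range (−0.24, SE 0.07, edgeR adjusted p = 0.0393), and its call was lost in 7 of 15 alternatives. Without minusDox replicate 2 or 3 or plusDox replicate 2 or 3 the edgeR adjusted p lay between 0.121 and 0.157. BOP1 was picked out after its values were seen.

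BRIX1, a factor of early large subunit assembly and the most abundant of the group by TPM, stood at 299.0, 315.5 and 295.7 CPM in −Dox and at 273.8, 269.9 and 283.2 CPM in +Dox. The groups were separate and the test just missed the threshold (−0.14, SE 0.05, edgeR adjusted p = 0.0576). GNL2, a GTPase of late nuclear maturation, had 194.3, 202.9 and 192.0 CPM in −Dox and 185.5, 181.9 and 183.2 CPM in +Dox. Those ranges were separate as well, by a small margin (−0.10, SE 0.04, edgeR adjusted p = 0.161). The related GTPase GNL3 (nucleostemin) passed as lower (−0.22, SE 0.04, edgeR adjusted p = 0.00374). The other genes NOP2, NOP16, MRTO4, RRS1, PPAN, GRWD1, NIP7 and DDX18 all passed as lower, between −0.36 (NOP2) and −0.24 (DDX18). GRWD1 lost its call when the fit was corrected for transcript length (edgeR adjusted p = 0.0747) and with limma on TPM (limma adjusted p = 0.0562), and DDX18 with limma on TPM (limma adjusted p = 0.052).

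All 5 genes that act at several steps passed as lower, with a median log2 fold change of −0.36. MYBBP1A, a nucleolar protein that binds MYB and p53 and takes part in precursor processing, had the largest decrease of all 55 genes. It stood at 45.0, 47.2 and 49.7 CPM in −Dox and at 34.4, 34.2 and 31.7 CPM in +Dox, 29.3% lower and without overlap (−0.50, SE 0.06, edgeR adjusted p = 0.000115). NCL encodes nucleolin, an abundant RNA-binding protein of the nucleolus. Its values were 1183, 1186 and 1113 CPM in −Dox and 918.5, 885.5 and 880.3 CPM in +Dox, again far apart (−0.38, SE 0.05, edgeR adjusted p = 0.000155).

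DDX21, a helicase that binds both ribosomal DNA and snoRNAs, had 1067, 1061 and 998.6 CPM in −Dox and 773.2, 829.0 and 836.6 CPM in +Dox, without overlap (−0.36, SE 0.05, edgeR adjusted p = 0.00036). LYAR, a nucleolar zinc finger protein that is also known as a repressor of fetal globin genes, was lower by a like amount (−0.35, SE 0.05, edgeR adjusted p = 0.000556). NPM1, the histone chaperone nucleophosmin and the most abundant mRNA of the 55, stood at 2342, 2433 and 2395 CPM in −Dox and at 1973, 1943 and 2063 CPM in +Dox. Its 3 +Dox libraries lay below all −Dox libraries (−0.26, SE 0.04, edgeR adjusted p = 0.00149).

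The summed nucleolar mRNA level was lower by about as much as the median gene. Summed over the 55 genes, it was 7067, 6964 and 6971 TPM in −Dox and 5666, 5921 and 5676 TPM in +Dox, a mean of 7001 ± 57.4 against 5754 ± 144 (SD, n = 3 each), 17.8% lower. NPM1 alone held 2063 TPM of the −Dox sum, and without it the sum was 17.6% lower. By group, the decrease of the summed level was 15.4% for RNA polymerase I, 14.1% for snoRNP, 17.7% for small subunit, 18.3% for large subunit and 20.1% for the genes of several steps. In none of these sums did a +Dox library reach a −Dox library.

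**Figure D4:**
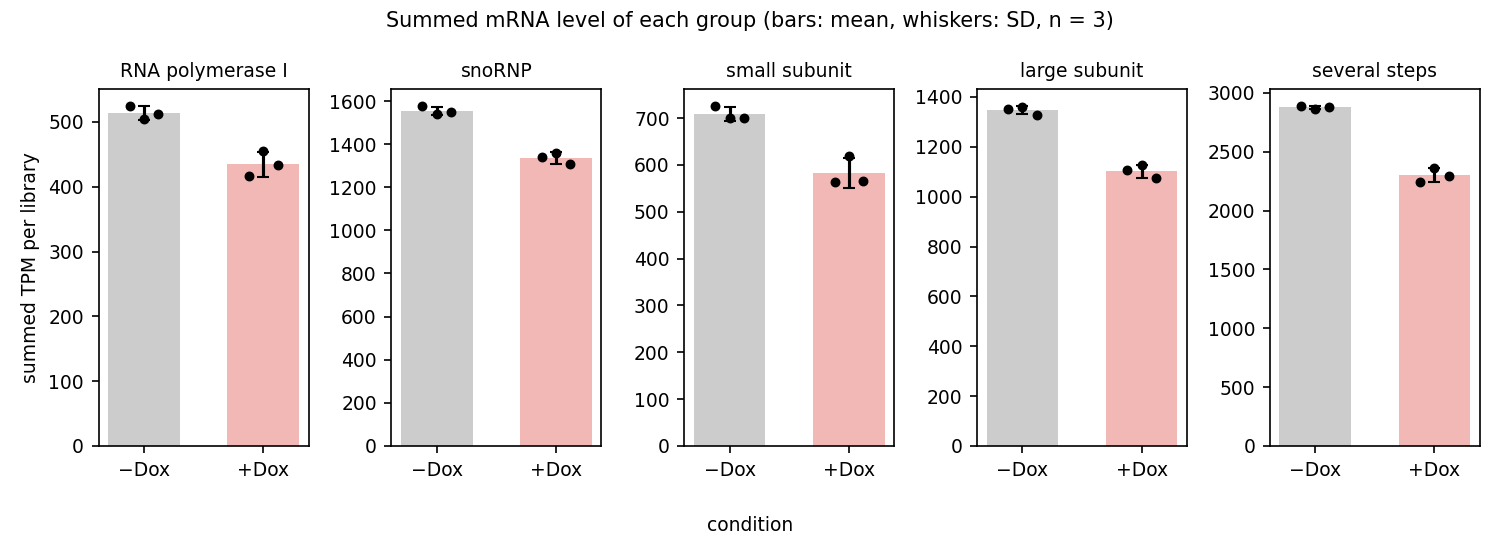
Summed TPM of each group of genes (y axes start at 0 and differ between panels) in the −Dox and +Dox libraries (x axis); bars are means, whiskers SD (n = 3) and points single libraries. In every panel the 3 +Dox points lie below the 3 −Dox points, with decreases of 14.1% (snoRNP) to 20.1% (several steps).

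The levels themselves spanned a wide range. By TPM in −Dox the order began with NPM1 (2063 ± 17.7, SD, n = 3), NCL (447.2 ± 15.2), NOP10 (331.2 ± 18.3) and FBL (319.5 ± 4.87), where NOP10 and FBL did not differ beyond their spread. BRIX1, DDX21, NOP56, TAF1D and NHP2 followed between 228.8 and 219.4 TPM and could not be ordered beyond their spread. At the other end stood RRP12, UTP20, POLR1A and NOL6, with 9.89, 9.67, 9.64 and 8.84 TPM. Across the 55 genes the mean TPM and the log2 fold change had a Spearman rho of 0.363, given as a description, since the genes share libraries and depth. Among the 18 least abundant genes 16 passed as lower (median −0.30), among the 18 in the middle 16 (−0.30), and among the 19 most abundant 13 (−0.23).

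The other genes of the same pathway, 97 that were not among the 55, were mostly lower too. Among all genes tested, 48.9% had a lower fitted level, 7.68% passed as lower and 8.16% as higher. Of these 97, 93 had a lower fitted level, 60 passed as lower and 0 as higher in the edgeR test. Their median log2 fold change was −0.21. DESeq2 also called 0 higher, and 2 were higher at an unadjusted p under 0.05 (POLR1F and NOP53). Both passed as higher in some alternatives, POLR1F without plusDox replicate 1 (0.19, edgeR adjusted p = 0.0433) and NOP53 without plusDox replicate 2 (0.22, edgeR adjusted p = 0.0402) and with every gene that had any count (0.16, edgeR adjusted p = 0.027). By group, 3 of 7 passed for RNA polymerase I, 5 of 9 for snoRNP, 24 of 36 for small subunit and 28 of 45 for large subunit. The 4 with a higher fitted level were POLR1F (0.15), NOP53 (0.17), TAF1B (0.07) and TMA16 (0.01), named after their values were seen, and the last pair turned lower under some settings.

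POLR1G, a further RNA polymerase I subunit, changed more than any of the 55. It had 19.4, 25.8 and 23.4 CPM in −Dox and 15.5, 13.7 and 13.0 CPM in +Dox, without overlap (−0.71, SE 0.10, edgeR adjusted p = 0.000473). TAF1A, like TAF1D a subunit of SL1, had 32.0, 33.2 and 31.9 CPM in −Dox and 25.4, 26.2 and 26.5 CPM in +Dox, all of them lower (−0.31, SE 0.05, edgeR adjusted p = 0.00179). Of the other SL1 genes, TAF1C passed as lower (−0.22, SE 0.05, edgeR adjusted p = 0.00771) and TAF1B did not pass. SNU13, the box C/D protein that first binds the snoRNA, went from 187.2, 205.8 and 197.7 CPM to 174.2, 161.9 and 175.2 CPM, without overlap (−0.21, SE 0.05, edgeR adjusted p = 0.015). ZNHIT6, a box C/D assembly factor, went from 78.4, 74.4 and 74.8 CPM to 68.8, 67.5 and 63.0 CPM, also without overlap (−0.19, SE 0.05, edgeR adjusted p = 0.0244). Both calls were fragile. SNU13 lost its call without minusDox replicate 2 or 3 or plusDox replicate 2 (edgeR adjusted p between 0.052 and 0.0727), and ZNHIT6 without any −Dox library or plusDox replicate 3 (between 0.0506 and 0.0998). Corrected for transcript length, neither passed (edgeR adjusted p = 0.0807 and 0.052), nor did ZNHIT6 with limma on TPM (limma adjusted p = 0.116). SNU13 (edgeR adjusted p = 0.0577) and ZNHIT6 (0.0568) also did not pass with a replicate block.

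LTV1, which acts late in small subunit maturation, stood at 154.8, 160.5 and 152.6 CPM in −Dox and at 110.8, 114.8 and 116.0 CPM in +Dox, wide apart (−0.45, SE 0.05, edgeR adjusted p = 3.54e-05). WDR3, a small subunit processome protein, had 203.4, 204.7 and 197.9 CPM in −Dox and 154.1, 162.6 and 164.7 CPM in +Dox, with the groups well apart (−0.33, SE 0.05, edgeR adjusted p = 0.000395). For the large subunit, MAK16 had 130.5, 138.2 and 133.3 CPM in −Dox and 98.2, 97.8 and 99.9 CPM in +Dox, with hardly any spread in +Dox (−0.44, SE 0.05, edgeR adjusted p = 4.11e-05). The helicase DDX51, at 27.4, 27.6 and 27.2 CPM in −Dox and 19.8, 21.8 and 19.4 CPM in +Dox, was lower too (−0.43, SE 0.06, edgeR adjusted p = 0.000526), though not when only protein-coding transcripts were counted (−0.27, edgeR adjusted p = 0.0862).

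Several nucleolar genes carry snoRNAs in their introns or produce transcripts annotated as retained introns or decay targets, so the share of each gene's TPM on transcripts not annotated as protein-coding was compared as a second readout. It was testable in 52 of the 55 genes, and none passed limma's test at an adjusted p under 0.05, where 0.0217% of the 9203 genes tested did. Before adjustment, 4 of the 52 had a p under 0.05, compared with 7.66% of all genes tested. The median share of the 52 was 8.04% against 19.5% over all genes. WDR12 had the highest share with 89.5%. Its leading transcripts by TPM were annotated retained introns of 541, 362 and 482 bases. TPM is corrected for transcript length, so this is not a share of reads. The 6 genes whose annotated exons overlap a snoRNA spread widely, with 83.2% for TAF1D, 64.0% for NOP56, 24.9% for GNL3, 20.7% for NOP58, 14.7% for DKC1 and 6.4% for NCL. NOP14 was listed at 0 in every library and NOP10 had a mean share of 0.0199%, so that their test values rest on the pseudocount and say nothing about a change.

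DDX10, the helicase that had the smallest p, had a share of 6.24%, 12.6% and 11.3% in −Dox and of 4.16%, 3.11% and 4.18% in +Dox. The groups did not overlap, but the difference did not hold after adjustment (limma adjusted p = 0.536). NIP7, a large subunit factor, went the other way, from a mean share of 1.51% to 2.44% (limma adjusted p = 0.597). FBL went from 5.45% to 3.24% (limma adjusted p = 0.603). These shares rest on estimated isoform abundances whose uncertainty was not analysed here.

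The cells' identity and the regulators of these genes were read from lists of markers. The K562 markers described here were present: HBG2, HBG1 and HBE1, the fetal and embryonic globins of this line, had −Dox means of 9789, 6253 and 3799 TPM, and GATA1 had 124.1 TPM. Several moved with induction, KLF1 (0.46, edgeR adjusted p = 0.00121) and TAL1 (0.44, edgeR adjusted p = 8.34e-05) upward and HBZ (−0.40, edgeR adjusted p = 0.00213) and LMO2 (−0.20, edgeR adjusted p = 0.0219) downward. In bulk RNA, fewer cells of a type and less RNA per cell cannot be told apart. Of 12 markers of other cell types, 6 were detected well enough to be tested and their summed level was 185.5, 201.5 and 215.5 TPM in −Dox and 149.8, 145.0 and 179.7 TPM in +Dox. The most abundant was LYZ, with a mean of 111.5 TPM in −Dox and 78.6 TPM in +Dox (−0.47, edgeR adjusted p = 0.00837), then CD3D and EPCAM. MS4A1 was at 0 in every library and CD3E, MPO, ELANE, CDH5 and CD79A were near 0. The part of these shifts in the lower nucleolar mRNA was not tested.

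MYC, which binds E-boxes as a dimer with MAX, stood at 152.0, 146.6 and 152.9 CPM in −Dox and at 96.9, 94.6 and 88.3 CPM in +Dox, where every library was lower (−0.69, SE 0.05, edgeR adjusted p = 2.15e-06). Of its antagonists at the same motif, MXD3 (0.46, edgeR adjusted p = 0.00159) and MXD4 (0.47, edgeR adjusted p = 0.00265) were higher, the latter not with limma on TPM (limma adjusted p = 0.11), and MXD1 (−0.29, edgeR adjusted p = 0.0203) and MNT (−0.27, edgeR adjusted p = 0.0414) lower. The call of MNT was lost on leaving out any 1 library (edgeR adjusted p between 0.0623 and 0.136), and that of MXD1 on leaving out minusDox replicate 1 or plusDox replicate 1 or 3 (between 0.0626 and 0.0856). Neither passed when the fit was corrected for transcript length (edgeR adjusted p = 0.453 for MNT and 0.112 for MXD1) or with limma on TPM (limma adjusted p = 0.507 and 0.245). MNT also did not pass with protein-coding transcripts only (edgeR adjusted p = 0.115) or with a replicate block (edgeR adjusted p = 0.0602). MAX (−0.12) and MXI1 (0.01) did not pass. Whether these regulators had a part in the nucleolar changes was not tested.

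Some of the counts are less certain than others because genes share sequence. NPM1 has 49 annotated pseudogenes, which together held 0.0358% to 0.0800% of the reads assigned to NPM1 and its pseudogenes. Of the exon bases of NOP2 and PPAN, 54.4% and 47.6% lie in another gene on the same strand (the read-through gene PPAN-P2RY11 for PPAN), and both of those genes were scarce, at 0.053 and 0.467 TPM. NHP2, HEATR1, DIMT1 and NOP14 overlap a gene on the other strand over 28.1%, 23.1%, 22.3% and 20.7% of their exon bases. For DIMT1 that gene, KIF2A, was itself lower (−0.24, edgeR adjusted p = 0.0146), and for NHP2 it was RMND5B, which was higher (0.21, edgeR adjusted p = 0.0143). Whether the counting used strand is not given in the sources used here, so reads in these overlaps cannot be told apart.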

How the data were processed

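PolyA-selected, paired-end libraries of K562 cells (3 −Dox, 3 +Dox) were quantified by the authors with Salmon (1.10.2), and the deposited tables give estimated counts and TPM per transcript; the Salmon index and strand setting are not given in the sources used here. Of 252045 transcripts, 251612 were matched to GENCODE 44 and summed into 62252 genes; the other 433 held 0.125% to 0.138% of counts. Summed estimated counts were rounded, and the 21045 genes averaging more than 10 counts were fitted with edgeR (4.0.16, TMM, quasi-likelihood test, two-sided, Benjamini-Hochberg), without a replicate block. Shares of transcripts not annotated as protein-coding were tested with limma (3.58.1) on log2 ratios of TPM with a pseudocount of 0.1. The fitting steps were checked on simulated counts. The 55 genes, their groups, the other lists and the tests were chosen with earlier results of these data known. Genes given library by library were, in each group, the 3 with the smallest p, the one with the largest p and the one with the highest TPM, and the 2 with the smallest p among other pathway genes of each group; FBL was among the 3 smallest p for the transcript share, and UBTF, BOP1 and MYC were added to them. Replicates differed by more than sampling noise (chi-square per gene 8.16 to 17.5), so none was merged. Values are relative to each library's total, so a change in RNA per cell is not seen. Alternatives were DESeq2 (1.42.0), other filters and scalings, a length offset, protein-coding transcripts only, limma on TPM, a replicate block and leaving out each library. Protein sequences were not analysed here. One K562 marker of the list is not reported here.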

Additional observations from a re-analysis of the deposited data

How the results depend on the processing

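Over 15 alternatives, the count of the 55 genes passing as lower stayed between 39 (limma on TPM) and 50 (DESeq2), 0 passed as higher in each, and 36 of the 45 were called in every one. Of 825 gene results, 776 kept their side of the threshold, 28 lost the call, 20 gained it and 1 reversed: TAF1D, −0.014 in the main test, ranged from −0.029 to 0.011 when 1 library was left out. With a length offset and with limma on TPM, TAF1B was −0.157 and −0.198 and TMA16 −0.118 and −0.151; with limma MXI1 was −0.037. With 1 library left out TAF1B ranged from −0.007 to 0.152, TMA16 from −0.021 to 0.032 and MXI1 from −0.043 to 0.04. The gained calls, all as lower, were those of POLR1E (in 6 alternatives), BRIX1 (5), NOP10 (4), NHP2 (2), NOP58 (2) and NOL11 (1). The genes with a lower level in every alternative were 53. Over all genes, 3333 passed in the main test, 1883 with a length offset and 1634 with limma on TPM; with the fold limit it was 308, then 515 with every gene that had any count and 172 with protein-coding transcripts only. The share of transcripts not annotated as protein-coding was called in 2 genes and in 4 on estimated counts. It was called in 0 with retained introns only, and in 0 to 1 when 1 library was left out. The cause of these differences was not tested. Replicate numbers did not pair the samples (same-number correlations 0.0484, −0.229 and −0.0432); with a replicate block 2490 of all genes and 41 of the 55 passed, and 0 for the share. Of the 55, DKC1 (edgeR adjusted p = 0.0602), FBL (0.15), UTP18 (0.0766) and BOP1 (0.0833) did not pass with it.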
